A study of Mus musculus with 5 samples.

Results

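The genes described here are the 42 genes of the autophagy machinery, taken by name from the 53700 gene IDs of the deposited count table and grouped by the step at which their proteins act. All 42 had counts in these libraries, and all 42 passed the filter on low counts and received an adjusted p. Ribosome-bound RNA was purified by BAC-TRAP (translating ribosome affinity purification, in which ribosomes carrying an EGFP-tagged L10a protein are pulled down with their mRNAs) from pooled midbrains of C57BL/6 mice aged 4 months. Both groups shared the C57BL/6 strain, the Cre-dependent L10a tag and injection of an adeno-associated virus carrying Cre under the tyrosine hydroxylase promoter (AAV:THCre). The control group had the genotype L10a;Esrrg WT (WT, 3 libraries, replicates 2, 3 and 4), and the other group had the genotype L10a;Esrrg Flox (FLOX, 2 libraries, replicates 2 and 4), in which Cre removes an exon of Esrrg. Esrrg encodes estrogen-related receptor gamma, a nuclear receptor, and midbrains were collected 1 month after induction.

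Macroautophagy encloses cytoplasm in a double membrane, the autophagosome, and delivers it to lysosomes. The ULK1 kinase complex starts the process, the Beclin 1 lipid kinase complex marks the site with a phosphoinositide, ATG9 vesicles and the lipid transfer protein ATG2 supply membrane, and ubiquitin-like conjugation attaches ATG8-family proteins (the LC3 and GABARAP proteins) to it, where cargo receptors bind. Neurons cannot dilute damaged proteins and organelles by dividing, and loss of core autophagy genes in the mouse brain is known to cause neurodegeneration.

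Of the autophagy genes, 4 were lower in FLOX at an adjusted p under 0.05 by DESeq2 (Benjamini-Hochberg, over all genes), or 9.52% of the 42 against 4.05% of all genes tested, and they belonged to 4 different steps. They were Atg9a (the transmembrane lipid scramblase of the ATG9 vesicle), Becn1 (Beclin 1, of the lipid kinase complex), Atg4d (an ATG4 protease) and Map1lc3b (LC3B, an ATG8 protein). In mean normalized count, the read count divided by the library's size factor, Atg9a was 64.6% lower, Atg4d 34.0%, Becn1 33.6% and Map1lc3b 24.2%. None of the 42 genes was higher at that threshold, against 4.2% of all genes tested, and 2 were higher at an unadjusted p under 0.05. The study chose Atg9a, Becn1 and Atg4d for follow-up from the results of these same libraries, so their direction here is not independent evidence. That follow-up was quantitative PCR on separate midbrain homogenates. It reported less Atg9a and Becn1 mRNA when Esrrg was deleted, and more Atg9a and Atg4d when Esrrg was overexpressed.

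The promoters of the genes that fell are shown because the deleted gene encodes a DNA-binding receptor, whose known element TNAAGGTCA was searched for in the promoters. Each stretch covers the 250 bases before the RefSeq transcription start on GRCm38.p6, read 5′ to 3′ along the gene's own strand, with capitals marking matches to the CCAAT box on either strand (ATTGG where it lies on the other strand). They lie at chr1:75192011-75192260 (minus strand) for Atg9a, chr9:21265035-21265284 (plus strand) for Atg4d and chr8:121590188-121590437 (plus strand) for Map1lc3b.
Atg9a: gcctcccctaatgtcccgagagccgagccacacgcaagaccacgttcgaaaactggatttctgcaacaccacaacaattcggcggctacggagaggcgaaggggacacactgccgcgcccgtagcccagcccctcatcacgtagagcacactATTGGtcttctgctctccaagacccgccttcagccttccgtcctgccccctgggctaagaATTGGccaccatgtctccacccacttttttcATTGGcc
Atg4d: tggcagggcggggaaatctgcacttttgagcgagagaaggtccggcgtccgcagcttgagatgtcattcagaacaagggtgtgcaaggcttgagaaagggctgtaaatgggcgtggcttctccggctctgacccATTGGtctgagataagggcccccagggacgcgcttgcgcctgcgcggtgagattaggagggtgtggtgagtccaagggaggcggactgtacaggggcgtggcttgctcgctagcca
Map1lc3b: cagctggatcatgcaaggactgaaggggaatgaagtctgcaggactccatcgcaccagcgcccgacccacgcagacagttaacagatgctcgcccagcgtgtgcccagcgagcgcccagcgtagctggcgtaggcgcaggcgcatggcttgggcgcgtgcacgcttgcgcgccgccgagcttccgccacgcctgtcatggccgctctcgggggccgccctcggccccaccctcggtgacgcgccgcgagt
The receptor's element TNAAGGTCA was in none of these 3 windows on either strand. Only 1.14% of all promoters held it in such a window, so its absence from 3 says little about binding. The study's supplement lists promoter sites of a related receptor, ERRα, from chromatin immunoprecipitation for human ATG9A and ATG4D. The study looked up only genes already picked by overlap with other gene lists. In the set that held ATG4D, it reported evidence of ERRα binding for nearly all genes. A listed site thus does not set ATG9A or ATG4D apart. The CCAAT box, a common promoter element searched for after the sequences had been seen, occurred 3 times in the Atg9a window, 1 time in that of Atg4d and 0 times in that of Map1lc3b. The Map1lc3b window had the highest G+C content of the 3, at 69.6%, against 60.4% for Atg4d and 58.8% for Atg9a. Becn1 had no entry in the promoter table.

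Of the 42 genes, 34 had promoter entries in that table, 40 entries in all. Shares below are per gene, by a match in any of its entries, while those of all promoters are per entry. A gene with several entries thus has more chances of a match. TNAAGGTCA was found in 0 of the 34 genes, where 1.14% of all 32851 promoters held it, and its core AAGGTCA, which lies within it, was found in 1 of 34 (2.94%), against 4.08% of all promoters. The CLEAR-type E-box TCACGTGA, the element bound by the lysosomal regulator TFEB, was found in 1 of 34 (2.94%), against 0.785% of all promoters. The CCAAT box was found in 10 of 34 (29.4%), against 33.8%. The 2 stretches with a match to AAGGTCA or TCACGTGA are given with the match in capitals, from chrX:140953659-140953687 (plus strand) and chr16:45158746-45158775 (plus strand).
Atg4a: gcctatccacaAAGGTCAtattgtaacgt
Atg3: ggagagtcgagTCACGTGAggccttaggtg
Neither Atg4a nor Atg3 was called in the comparison of FLOX with WT. A match describes the letters in this window only and is not a measured binding site.

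The libraries held between 20635855 and 23105058 counts assigned to genes, so that 3 counts, taken as the limit that a count of 0 allows, correspond to 0.130 to 0.145 CPM (counts scaled to a common library total). Every autophagy gene was well above this limit. Esrrg itself, counted over the whole gene and so not a measure of the deleted exon, had normalized counts of 1763, 1643 and 1726 in WT replicates 2, 3 and 4 and of 1504 and 1170 in FLOX replicates 2 and 4 (DESeq2 log2 fold change −0.36 ± 0.13 SE, adjusted p = 0.0753). The dopaminergic marker Th was present in all 5 libraries, at 9849 to 12813 normalized counts in WT and 10224 and 10945 in FLOX. Of 12 dopaminergic markers, 1 (8.33%, against 4.05% of all genes tested) was called lower, Ret (log2 fold change −0.40, DESeq2 adjusted p = 0.00291). None was called higher, against 4.2% of all genes tested. The median log2 fold change of these markers was −0.15, with 10 below 0 (83.3%, against 50.9% of all genes tested) and 2 above. Both FLOX libraries lay below all WT libraries for 5 of them (41.7%, against 22.5% of all genes tested). They lay above all WT libraries for 2 (16.7%, against 19.9%). Markers of other cells were also present, the 8 oligodendrocyte markers summing to more than the dopaminergic ones, so the purified RNA was not that of dopaminergic neurons alone. Of 12 microglial markers 10 were called higher in FLOX (83.3%, against 4.2% of all genes tested). They summed to 1886 to 3677 normalized counts in WT, 6578 in FLOX replicate 2 and 14703 in FLOX replicate 4. Of 8 endothelial markers 3 were called higher (37.5%, against 4.2%). Their sums were 128 to 288 in WT and 299.7 and 770.4 in FLOX replicates 2 and 4. The part of these other cells in the autophagy gene results was not tested. In bulk RNA of this kind, fewer tagged cells and less RNA per cell cannot be told apart.

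Across the 42 autophagy genes the DESeq2 log2 fold changes of FLOX against WT ranged from −1.50 to 0.28, with a median of −0.10, beside −0.01 over all 15724 genes tested. The fold change was below 0 for 31 genes (73.8%) and above 0 for 11, while 50.9% of all genes tested were below 0 and 49.1% above. In all, 4 genes (9.52%) were called lower, against a background of 4.05% of all genes called lower, and 0 were called higher, against 4.2%. With a fold change of at least 1.5 as well, 3 genes remained (background 1.41%), since Map1lc3b fell by less, and 0 were higher (background 1.77%). At an unadjusted p under 0.05, 8 were lower (19.0%, background 10.6%) and 2 were higher (4.76%, background 9.74%). Both FLOX libraries lay below all 3 WT libraries for 12 genes (28.6%, background 22.5%) and above all 3 for 5 genes (11.9%, background 19.9%). By edgeR's quasi-likelihood test 1 gene, Atg9a, was called lower (background 0.535%) and 0 were higher (background 0.884%), so the count of 4 holds for DESeq2 only.

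**Figure D1:**
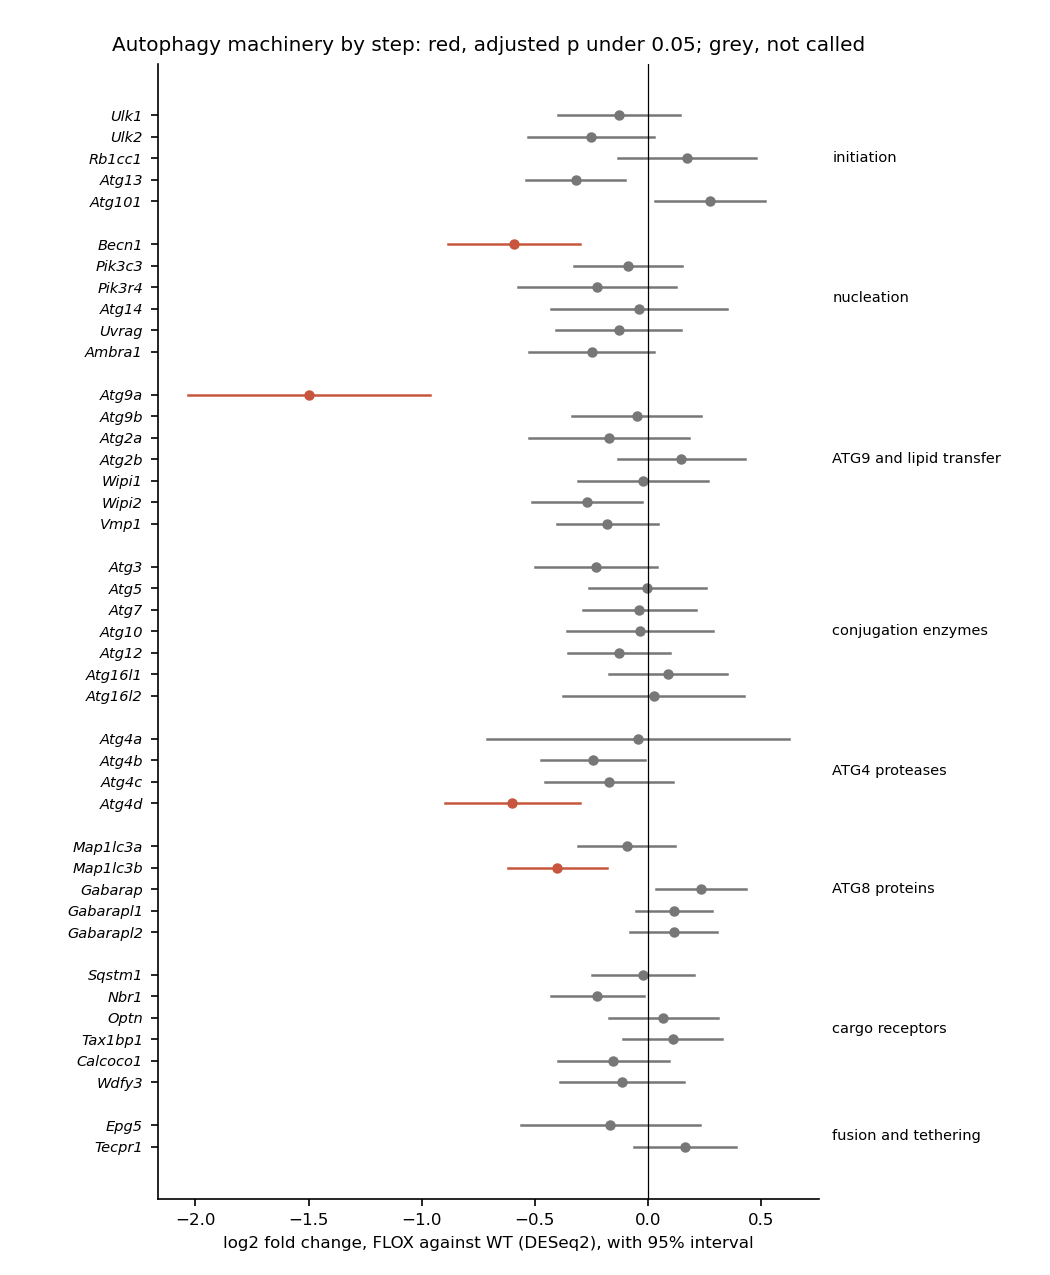
Log2 fold change of FLOX against WT for each of the 42 autophagy genes, grouped by step (points are DESeq2 estimates, bars their 95% confidence intervals, and red marks an adjusted p under 0.05). Most points lie left of 0, Atg9a lies farthest left at −1.50, and Atg101 lies farthest right at 0.28.

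The 2 FLOX libraries differed in how far they departed from WT. Relative to the WT mean, the median difference in log2(normalized count + 1) over the 42 genes was −0.04 in FLOX replicate 2 and −0.13 in FLOX replicate 4, with SDs over the genes of 0.21 and 0.40, while the 3 WT libraries had medians from −0.01 to 0.01 and SDs from 0.10 to 0.14. Each WT library is part of the WT mean it is set against, which draws its median towards 0 and narrows its SD, so the WT and FLOX values are not on an equal footing. Over all genes tested both FLOX medians were −0.003. FLOX replicate 4 was farther from the WT mean than replicate 2 for 34 of the 42 genes. Both FLOX libraries lay below the WT mean for 21 genes and above it for 9, and they lay on opposite sides for 12. The same counts were not made over all genes tested, so they do not show a trait particular to the autophagy genes. FLOX replicate 4 was also the library with the most microglial and endothelial marker counts and the fewest Esrrg counts, and how much of the difference this accounts for was not tested.

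**Figure D2:**
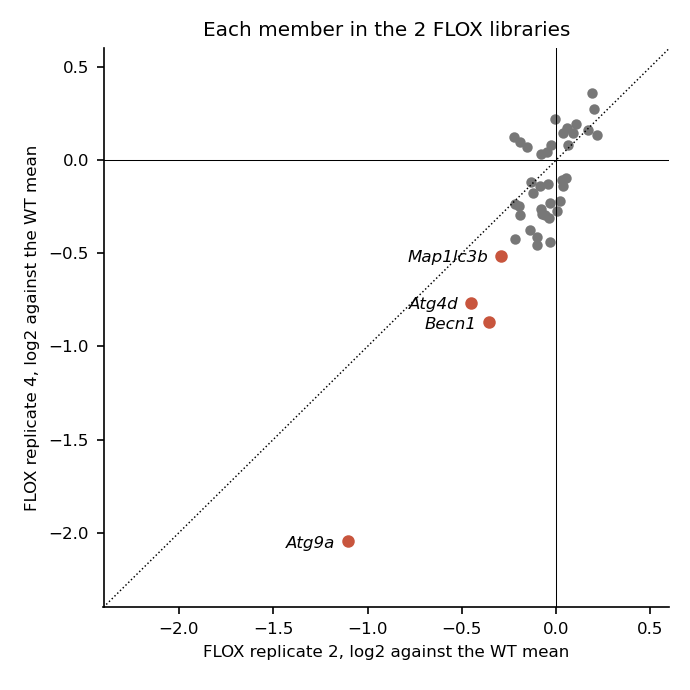
Log2 normalized count relative to the WT mean in FLOX replicate 2 (horizontal) and FLOX replicate 4 (vertical), 1 point per autophagy gene, with the genes called lower in red and named and a dotted line where both libraries are equal. Atg9a, Becn1, Atg4d and Map1lc3b lie below 0 in both libraries and farther from it in replicate 4.

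At the initiation step, none of the 5 genes was called (2 had an unadjusted p under 0.05). Atg13, which encodes the scaffold that binds the ULK1 kinase, was the nearest to the threshold of these. It had 2137, 2070 and 2090 normalized counts in WT and 1802 and 1564 in FLOX. The FLOX values were below every WT value (log2 fold change −0.32 ± 0.11 SE, DESeq2 adjusted p = 0.0529). Atg101, which stabilizes ATG13 and was the most abundant gene of the step per length, went the other way, with 1188, 1114 and 1294 normalized counts in WT and 1367 and 1539 in FLOX. Its FLOX libraries lay above all WT libraries, but it was not called (log2 fold change 0.28 ± 0.12 SE, adjusted p = 0.166). For the kinase genes themselves, Ulk1 had 1432, 1431 and 1161 normalized counts in WT and 1311 and 1145 in FLOX, and Ulk2 had 1105, 1168 and 954 in WT and 978 and 830.1 in FLOX. In both, WT replicate 4 was well below the other WT libraries and the groups overlapped. The scaffold gene Rb1cc1 (FIP200) had a log2 fold change of 0.17 (adjusted p = 0.608) with overlapping groups.

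At the nucleation step, Becn1 was the gene that fell. It had 1973, 1901 and 2001 normalized counts in WT replicates 2, 3 and 4 and 1530 and 1071 in FLOX replicates 2 and 4, or 1958 ± 52.0 (SD, n = 3) against 1301 ± 325 (SD, n = 2). The 3 WT values lay close together and both FLOX values lay well below them, the lower by far in replicate 4. The log2 fold change was −0.59 ± 0.15 SE (DESeq2 adjusted p = 0.0036), while edgeR gave an adjusted p of 0.0628. The remaining 5 genes of the step were not called, although their fold changes were also below 0. They were Pik3c3 (the catalytic lipid kinase VPS34, −0.09, both FLOX libraries just below WT), Pik3r4 (its regulatory subunit VPS15, −0.22), Ambra1 (a Beclin 1 partner, −0.25), Uvrag (the endosomal partner, −0.13) and Atg14 (the autophagy-specific partner, −0.04). Of the alternative Beclin 1 partners, Atg14 and Uvrag, neither was separated between the groups.

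The nucleation genes together had 37.5 ± 1.41 CPM per kilobase of exon (SD, n = 3) in WT, against 30.1 ± 4.45 in FLOX (SD, n = 2). Without Becn1 the sums were 24.8 ± 1.41 and 21.9 ± 2.20. In that smaller sum FLOX replicate 2, at 23.4, lay within the WT range of 23.2 to 25.8, and FLOX replicate 4 lay below it at 20.3.

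Among the 7 genes of the ATG9 vesicle and lipid transfer step, Atg9a had the largest decrease of all 42 genes. It had 309.7, 271.1 and 404.5 normalized counts in WT and 152.7 and 79.5 in FLOX, or 328 ± 68.6 (SD, n = 3) against 116 ± 51.8 (SD, n = 2). The WT libraries were themselves spread, with replicate 4 highest, and FLOX replicate 4 was again the lowest library. The log2 fold change was −1.50 ± 0.27 SE (DESeq2 adjusted p = 1.4e-05, edgeR adjusted p = 0.0440). Its paralog Atg9b was not called, with a log2 fold change of −0.05 (adjusted p = 0.914) and overlapping groups. It shares 7.45% of its exon length with the neighbouring Nos3. Per length Atg9a had the lower level in WT, at 2.61 ± 0.50 CPM per kilobase (SD, n = 3), against 6.25 ± 0.40 for Atg9b. Atg9a shares more, 32.6% of its exon length, and reads in shared exons were not counted, which can set its level too low.

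Vmp1, which encodes an endoplasmic reticulum scramblase, was the most abundant gene of that step per length. It had 2226, 2372 and 2194 normalized counts in WT and 2152 and 1851 in FLOX. Both FLOX libraries lay below WT, replicate 2 by little, and the gene was not called (log2 fold change −0.18, DESeq2 adjusted p = 0.409). Wipi2, which recruits the conjugation complex to phosphoinositides, showed the same order (−0.27, adjusted p = 0.182), and its FLOX libraries also lay below all WT libraries. Wipi1, its paralog, was at −0.02 with overlapping groups. Of the lipid transfer genes, Atg2a was at −0.17 with overlapping groups and Atg2b was at 0.15 with both FLOX libraries above WT. Without Atg9a, the summed level of the step was 57.9 ± 2.05 CPM per kilobase in WT (SD, n = 3), against 50.8 ± 6.74 in FLOX (SD, n = 2), in which FLOX replicate 2, at 55.6, lay next to the lowest WT library, at 55.7.

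None of the 7 genes of the conjugation step was called, and 0 had an unadjusted p under 0.05. Atg3, the E2-like enzyme for ATG8 proteins and the most abundant of the 7 per length, had 947.1, 962 and 1171 normalized counts in WT and 882.8 and 870.8 in FLOX. Both FLOX libraries were below WT, but WT replicate 4 stood above the others by more than the gap between the groups (log2 fold change −0.23, DESeq2 adjusted p = 0.365). Atg12, the ubiquitin-like protein joined to ATG5, showed the same order at −0.13 (adjusted p = 0.617). The others all overlapped between groups, namely Atg5 at −0.001, the E1-like Atg7 at −0.04, the E2-like Atg10 at −0.04, the scaffold Atg16l1 at 0.09 and its paralog Atg16l2 at 0.03.

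Of the 4 ATG4 proteases, which trim ATG8 proteins before conjugation and release them from membranes, Atg4d was called. It had 794.4, 764.3 and 900.2 normalized counts in WT and 600.4 and 482.1 in FLOX, or 820 ± 71.4 (SD, n = 3) against 541 ± 83.6 (SD, n = 2). Both FLOX libraries lay below all WT libraries, with replicate 4 lowest. The log2 fold change was −0.60 ± 0.15 SE (DESeq2 adjusted p = 0.0036, edgeR adjusted p = 0.0529). Atg4b, the most active protease and the most abundant of the 4 per length, had 1667, 1706 and 1908 normalized counts in WT and 1543 and 1435 in FLOX. Its groups did not overlap either, but it was not called (log2 fold change −0.24 ± 0.12 SE, adjusted p = 0.210). Atg4c was at −0.17 (adjusted p = 0.585) and Atg4a, the least abundant, was at −0.04 with an SE of 0.34, too wide to show a change of the size seen in Atg4d. Atg4d thus differed from its family members in being called, but the difference between their fold changes was not tested.

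Map1lc3b was the ATG8 gene that fell. It had 6346, 6386 and 7098 normalized counts in WT and 5389 and 4628 in FLOX, or 6610 ± 423 (SD, n = 3) against 5008 ± 539 (SD, n = 2). Neither FLOX library reached the lowest WT value. The log2 fold change was −0.40 ± 0.11 SE (DESeq2 adjusted p = 0.00929, edgeR adjusted p = 0.0661). Map1lc3a (LC3A), its neuronally abundant paralog, had 11794, 11281 and 12529 normalized counts in WT and 12057 and 10196 in FLOX, with FLOX replicate 2 inside the WT range (−0.09, adjusted p = 0.728).

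The GABARAP genes had fold changes above 0 and none was called. Gabarap, after which the family is named, had 6230, 6074 and 6888 normalized counts in WT and 7351 and 7733 in FLOX, with both FLOX libraries above WT (log2 fold change 0.24 ± 0.10 SE, DESeq2 adjusted p = 0.140, unadjusted p = 0.0197). Gabarapl1, the most abundant of the 42 genes per length, had 28893, 28646 and 28671 normalized counts in WT and 30607 and 31773 in FLOX. Its FLOX libraries lay above the narrow WT range (0.12, adjusted p = 0.487). Gabarapl2 was at 0.12 (adjusted p = 0.586) with overlapping groups. The summed level of the 5 ATG8 genes was 1431 ± 17.6 CPM per kilobase in WT (SD, n = 3), against 1452 ± 55.4 in FLOX (SD, n = 2).

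**Figure D3:**
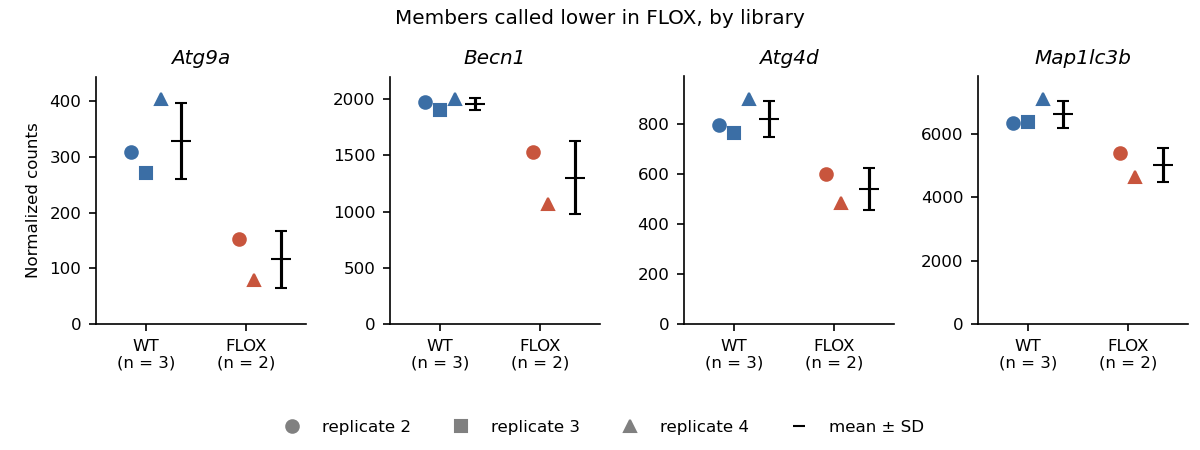
Normalized counts (linear axis from 0) in each WT and FLOX library for the autophagy genes called lower, with the group mean and SD beside the points. In all 4 genes both FLOX libraries lie below the lowest WT library, and FLOX replicate 4 lies below replicate 2.

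None of the 6 cargo receptor genes was called, and 1 had an unadjusted p under 0.05. Sqstm1 (p62), which links ubiquitinated cargo to ATG8 proteins and is itself degraded by autophagy, had 19459, 18104 and 22369 normalized counts in WT and 18912 and 20456 in FLOX. The FLOX values were within the WT range (log2 fold change −0.02 ± 0.12 SE, DESeq2 adjusted p = 0.954). Nbr1, a related ubiquitin-binding receptor, lay below WT in both FLOX libraries without being called (−0.22 ± 0.10 SE, adjusted p = 0.192). The other receptors overlapped between groups, with Optn at 0.07, Tax1bp1 at 0.11, Calcoco1 at −0.15 and the aggregate-clearing scaffold Wdfy3 at −0.11. At the fusion and tethering step, Tecpr1, which links autophagosomes to lysosomes, had 2516, 2473 and 2115 normalized counts in WT and 2662 and 2647 in FLOX. The FLOX values were above all WT values, with WT replicate 4 apart from the other WT libraries, and neither Tecpr1 (0.16, adjusted p = 0.465) nor the tether gene Epg5 (−0.17, adjusted p = 0.740) was called.

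The levels of the genes spanned a wide range, so their steps carried unequal amounts of mRNA. On the scale of CPM per kilobase of exon in WT, Gabarapl1 was highest at 654 ± 11.2 (SD, n = 3), followed by Map1lc3a at 460.5 ± 16.9, Sqstm1 at 273 ± 25.2, Gabarap at 159 ± 8.16, Gabarapl2 at 117.0 ± 3.91 and Map1lc3b at 40.3 ± 1.98. These 6 genes were separated by more than their SDs. Below them the levels ran from Atg101 at 34.4 ± 2.04 through Vmp1 at 26.9 ± 1.52 and Becn1 at 12.7 ± 0.18 to Atg4d at 5.17 ± 0.36 and Atg9a at 2.61 ± 0.50. Atg16l2, at 1.12, and Atg4a, at 1.15, were lowest. The exon length used here is the union over all annotated transcripts, so a gene with long rare transcripts is set too low. Reads in exons shared with another gene were not counted, which can also set genes such as Becn1 and Atg9a too low. The summed level of the ATG4 step was 23.9 ± 1.35 in WT and 19.3 ± 1.83 in FLOX, and without Atg4d 18.7 ± 1.08 and 16.0 ± 1.24. The summed level of the conjugation genes was 58.0 ± 2.88 in WT and 53.6 ± 0.47 in FLOX. Both FLOX libraries, at 53.9 and 53.3, lay below the lowest WT library, at 54.9. The sums of initiation, cargo receptor and fusion genes differed between groups by less than the SD in WT.

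**Figure D4:**
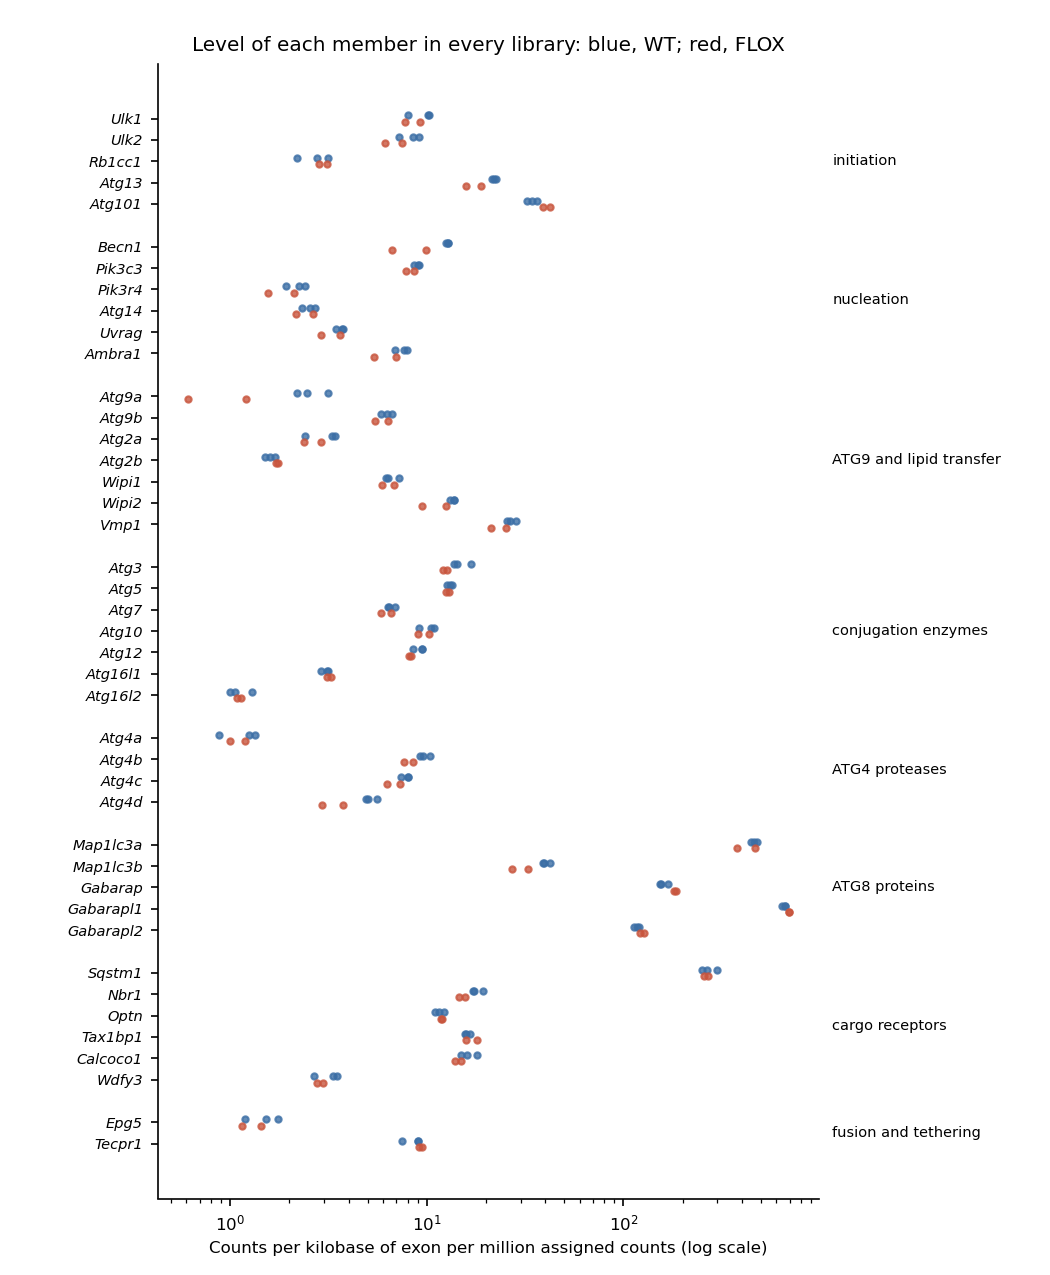
Level of each autophagy gene in every library (CPM per kilobase of exon, log axis), 1 point per library, with WT in blue and FLOX in red, grouped by step. The ATG8 genes and Sqstm1 lie at the top, and Atg9a, Atg4a and Atg16l2 lie near the bottom.

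Ratios between paralogs compare genes inside a library and do not depend on library size, and 7 such pairs were described without a test. In 3 pairs the 2 groups did not overlap, and the share among other gene pairs was not computed. For single genes, both FLOX libraries lay below all WT libraries in 22.5% of all genes tested and above in 19.9%. Map1lc3b and Atg4d were already called lower, so their pairs are not separate evidence. The log2 ratio of Map1lc3b to Map1lc3a was −0.89, −0.82 and −0.82 in WT and −1.16 and −1.14 in FLOX, so that LC3B made up 35.0% to 36.2% of the counts of the pair in WT and 30.9% and 31.2% in FLOX. Here, unlike in the level of Map1lc3b alone, the FLOX libraries were nearly equal. The log2 ratio of Atg4d to Atg4b was −1.07, −1.16 and −1.08 in WT and −1.36 and −1.57 in FLOX, so that Atg4d made up 30.9% to 32.3% of the pair in WT and 28.0% and 25.2% in FLOX. The log2 ratio of Ulk1 to Ulk2 was 0.37, 0.29 and 0.28 in WT and 0.42 and 0.46 in FLOX, a difference of 0.13. The other 4 pairs (Atg2a and Atg2b, Wipi1 and Wipi2, Atg16l2 and Atg16l1, Gabarapl1 and Gabarapl2) overlapped between groups.

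**Figure D5:**
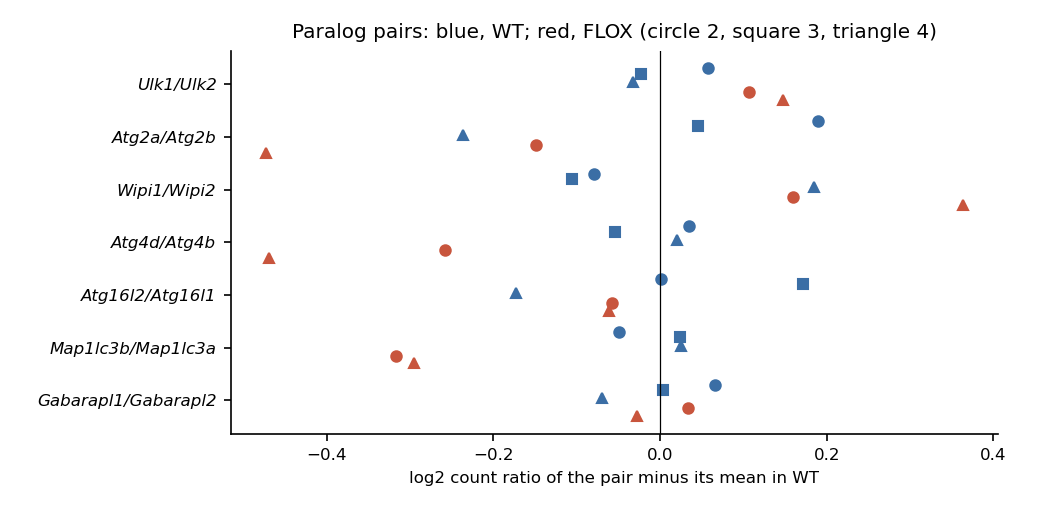
Log2 count ratio of 7 paralog pairs in each library, minus its mean in WT (marker shape gives the replicate, colour the group). The FLOX values lie outside the WT range for Map1lc3b to Map1lc3a and for Atg4d to Atg4b, both lower, and for Ulk1 to Ulk2, higher.

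Reads that overlap more than 1 gene were not counted and strand was not used, so genes with overlapping neighbours are measured less surely. By the GENCODE M21 annotation, 26 of the 42 genes share no exon sequence with another gene, and 6 share at least 10% of their exon length, among them 3 of the 4 genes that fell. Becn1 shares 43.9% with Cntd1 on the opposite strand, which had at most 3.84 normalized counts in any library. Atg9a shares 32.6%, nearly all of it with Gm29253, which had 0 counts in every library. The rest is shared with Ankzf1, whose log2 fold change was 0.02 (DESeq2 adjusted p = 0.980). Reads in shared exons count for neither gene, so these low or 0 counts do not show that Cntd1 or Gm29253 was silent. Atg4d shares 19.3% with Kri1 on the opposite strand, which had 118.0, 134.5 and 165.2 normalized counts in WT and 104.7 and 63.6 in FLOX. Kri1 was below WT in both FLOX libraries without being called (log2 fold change −0.73 ± 0.30 SE, DESeq2 adjusted p = 0.112). Without strand, reads where the 2 genes overlap could not be assigned and were counted for neither. Map1lc3b shares only 0.772%, with Zcchc14. For Gabarapl1 the share was 28.3%, for Uvrag 17.6% and for Sqstm1 17.3%. Across the 42 genes, the Spearman correlation of the log2 fold change was −0.10 with G+C content, −0.16 with exon length and 0.06 with mean level, beside −0.03, −0.21 and −0.10 across all genes tested, given as descriptions since genes share libraries.

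Of 48 further genes of the pathway, a list of regulators, further core factors, fusion factors and organelle receptors, 47 had an adjusted p, and 2 (4.26%) were called higher and 1 (2.13%) lower by DESeq2, with a median log2 fold change of −0.01. These shares were near or below those of all genes tested, 4.2% higher and 4.05% lower. At an unadjusted DESeq2 p under 0.05, 9 were lower (19.1%, background 10.6%) and 3 were higher (6.38%, background 9.74%). Both FLOX libraries lay below all WT libraries for 17 (36.2%, background 22.5%) and above all for 6 (12.8%, background 19.9%). The 17 regulators, among them Mtor (the growth kinase that restrains autophagy) and Tfeb (the lysosomal transcription factor), and the 7 further core genes had 0 calls. Of the 12 fusion genes, Vamp8, which encodes a lysosomal SNARE protein, rose. It had 232.8, 203.8 and 176.8 normalized counts in WT and 276.7 and 396.6 in FLOX, all FLOX above all WT (log2 fold change 0.72 ± 0.22 SE, DESeq2 adjusted p = 0.0196). Vamp8 is also expressed in microglia, whose markers were higher in FLOX and highest in replicate 4, and the part of these cells in the Vamp8 result was not tested.

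Of the 12 organelle receptors, Bcl2l13, a mitophagy receptor, fell. It had 477.3, 471.8 and 524.6 normalized counts in WT and 352.6 and 284.3 in FLOX, with FLOX replicate 4 lowest (log2 fold change −0.63 ± 0.16 SE, DESeq2 adjusted p = 0.00532). Sec62, an ER-phagy receptor that is also part of the protein translocation machinery, rose, from 12420, 11862 and 11442 normalized counts in WT to 13745 and 16681 in FLOX (0.35 ± 0.11 SE, adjusted p = 0.0271). By edgeR none of the 3 was called, with adjusted p-values of 0.0683 for Vamp8, 0.0504 for Bcl2l13 and 0.0825 for Sec62.

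The calls of the 4 genes that fell among the 42 depended on which libraries were included. Leaving out either FLOX library keeps only 1 in that group, so for these fits only log2 fold changes are given. Without FLOX replicate 4 they were −1.11 for Atg9a, −0.36 for Becn1, −0.45 for Atg4d and −0.30 for Map1lc3b. Without WT replicate 2, only Atg9a was called. The log2 fold changes of the others differed little from those of all 5 libraries, at −0.59 for Becn1 (DESeq2 adjusted p = 0.0555), −0.62 for Atg4d (0.0533) and −0.43 for Map1lc3b (0.0837). Without WT replicate 4, Atg9a (log2 fold change −1.32) received no adjusted p and the other 3 were called. Without FLOX replicate 2, the log2 fold changes were −2.05 for Atg9a, −0.87 for Becn1, −0.77 for Atg4d and −0.52 for Map1lc3b. In each of these fits the 4 genes were lower in FLOX.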

How the data were processed

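The libraries were poly(A)-selected and not strand-specific, and their reads were trimmed, aligned with STAR and counted per gene with HTSeq by the authors, who deposited raw read counts with no normalization. The submitters' processing notes name Trim Galore 0.6.6, STAR 2.7.9a, HTSeq 0.11.3 and the build GRCm39, while the study's methods name GRCm38, so no gene coordinates were taken from the table. The 5 summary lines of unassigned reads were left out of library sizes (outside genes 3.18% to 4.45%, overlapping several genes 5.62% to 5.78%, aligned to several places 3.60% to 4.23%), and 0 value columns were unused. Names were matched for 52147 of 53700 IDs (97.1%) through GENCODE M21, and promoter sequences came from RefSeq on GRCm38.p6. Each library pooled several mice, and no label ties the pools to separate experiments, so p-values measure the spread between these libraries.

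The 29407 genes with any count were fitted together with DESeq2 1.42.0 in R 4.3.3, the tool of the study's methods (default size factors, two-sided Wald test, independent filtering and Benjamini-Hochberg adjustment at 0.05), and 15724 genes received an adjusted p. Normalized counts were obtained by dividing by the DESeq2 size factor. Every p comes from such a fit over all genes, since an exact permutation test of 3 against 2 libraries cannot go below 0.1. Alternatives were edgeR 4.0.16 (quasi-likelihood), TMM factors, a minimum of 10 counts in 2 libraries, no independent filtering, a fold change of 1.5, trends in G+C content or length removed, a replicate block and each library left out. Levels across genes were divided by exon length. The members, lists and named genes (called genes, the most abundant per step, and paralog pairs whose groups do not overlap) were chosen with earlier results of these data known. The confidence intervals of fold changes come from the DESeq2 standard errors, which include the spread between libraries, while the limit set by 3 counts covers counting error only, since reads carry no molecular identifiers.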

Additional observations from a re-analysis of the deposited data

How the results depend on the processing

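The direction of the 4 genes that fell (Atg9a, Becn1, Atg4d, Map1lc3b) and an unadjusted p under 0.05 held in all 12 fits with their own fold changes. The count called lower was 4 by DESeq2, 1 by edgeR, and 1 to 6 with each library left out in turn, the lowest without WT replicate 2 or FLOX replicate 4 and the highest without FLOX replicate 2. It was 5 with TMM factors or a filter on low counts, each adding Atg13, and 4 without independent filtering or with a trend in G+C content or length removed. The count called higher was 0 in every setting that kept both FLOX libraries. The median log2 fold change of the 42 genes was −0.10, moved to −0.065 with the length trend removed, and ran from −0.139 to −0.056 with each library left out, with FLOX replicate 4 setting the value nearest 0. The causes were not tested. The groups share only replicate numbers 2 and 4, and the difference between these numbers correlated weakly between groups across genes (Pearson r = 0.098, 16178 genes), so the numbers were not taken as pairs. A replicate block compares only replicates 2 and 4 of each group, since WT replicate 3 is alone in its block and adds nothing. With this block 3 genes were called lower, Atg4d being lost (log2 fold change −0.65, DESeq2 adjusted p = 0.0541). In the same fit 0 were called higher and the median was −0.08. Vamp8, Sec62 and Bcl2l13 were not called by edgeR, with the block, or without WT replicate 2. Vamp8 and Sec62 were also not called without WT replicate 3 or WT replicate 4, and Sec62 was not called without independent filtering (adjusted p = 0.0506).

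With 2 FLOX libraries, changes of the size of Atg13 lie at the threshold, and a gene not called is not shown to be unchanged. Exon counts were not analysed here, so the deletion was not measured.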
